A study of Mus musculus with 12 samples.

Results

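Interferon response genes were followed in bulk RNA sequencing of dentate gyrus, the part of the hippocampus that holds the granule cells, from C57BL/6 mice. The set was a named list of 43 genes, all found in both deposited count tables, out of 52636 genes in each. It was chosen with earlier results of these data known. Shares of the set printed beside those of all genes are therefore not independent of that choice. The 12 libraries formed 4 groups of 3. The Fst vector group (M1, M2 and F) is called overexpressing and received AAV9-CB::Fst, an adeno-associated virus carrying the follistatin gene; its genotype is not stated. The GFP vector group (M1, M2 and F) was Fst knockout given AAV9-CB::GFP, which carries green fluorescent protein. The KO group (M1, F1 and M2) was Fst knockout with no vector named, and the WT group (M1, F1 and M2) was wild type. The sources used here do not give age, the knockout allele, the vector dose or the time after injection, nor how CB, the label's name for the element ahead of the transgene, restricts the cells that make it. Whether a library pools mice is not clear from the design text, so p-values measure only how far these libraries vary, which may be technical. Letters M and F follow the titles, and for 4 libraries, F1 and M2 of both KO and WT, the description names the opposite sex.

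Interferons are secreted proteins that cells release on sensing viral nucleic acid. Type I interferon acts through the receptor chains Ifnar1 and Ifnar2 and the kinases Jak1 and Tyk2, which lead to a complex that holds Stat2 and Irf9. This complex binds the interferon-stimulated response element in the promoters of antiviral genes. Interferon gamma acts through Ifngr1 and Ifngr2 and a different promoter element, and raises Irf1 and many guanylate-binding proteins. In the brain, microglia, astrocytes and endothelial cells are known to mount this response, and a low tonic level is present without infection.

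The promoters were searched for the interferon-stimulated response element. RefSeq windows of 300 bases (GRCm38.p6), from 250 before the annotated start to 50 after it, were matched for 32 of the 43 genes. The search pattern was GAAA, any 2 bases and GAAA again, or on the opposite strand TTTC, any 2 bases and TTTC, with overlapping matches counted. It was present in a window of 20 of these 32 genes and absent from those of 12, and 3.99% of all 27025 genes with a window held it. The gamma-activated pattern TTCNNNGAA, which reads the same on both strands, was present in 9 of the 32 genes and in 9.55% of all genes. The 6 windows below run 5′ to 3′ on the strand of the gene, with every match of the first pattern in capitals. Isg15, the ubiquitin-like modifier, is shown because it holds 3 overlapping matches, Ifit3 and Ifit3b because they are near copies, Gbp2 and Oas1a because they had the largest differences between vector and non-vector libraries, and Xaf1 because it differed as firmly with no match in its window.
Isg15 (chr4:156200769-156201068, minus strand): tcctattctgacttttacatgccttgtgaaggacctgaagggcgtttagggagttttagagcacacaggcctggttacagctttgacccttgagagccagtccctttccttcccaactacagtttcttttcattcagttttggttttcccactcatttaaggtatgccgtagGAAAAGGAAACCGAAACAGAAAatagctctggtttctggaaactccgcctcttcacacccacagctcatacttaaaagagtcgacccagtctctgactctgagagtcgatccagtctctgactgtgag
Ifit3 (chr19:34583279-34583578, plus strand): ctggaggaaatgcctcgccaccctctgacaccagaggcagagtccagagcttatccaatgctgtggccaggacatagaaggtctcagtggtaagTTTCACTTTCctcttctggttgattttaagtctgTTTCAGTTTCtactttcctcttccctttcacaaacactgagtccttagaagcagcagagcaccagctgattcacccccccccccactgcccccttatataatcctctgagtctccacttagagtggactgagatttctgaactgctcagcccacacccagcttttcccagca
Ifit3b (chr19:34607707-34608006, plus strand): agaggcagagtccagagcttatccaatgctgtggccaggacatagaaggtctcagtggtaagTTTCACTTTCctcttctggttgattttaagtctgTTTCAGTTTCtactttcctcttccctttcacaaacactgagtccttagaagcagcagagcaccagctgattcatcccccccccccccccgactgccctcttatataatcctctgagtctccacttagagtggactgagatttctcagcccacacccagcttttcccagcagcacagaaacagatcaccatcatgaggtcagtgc
Gbp2 (chr3:142620413-142620712, plus strand): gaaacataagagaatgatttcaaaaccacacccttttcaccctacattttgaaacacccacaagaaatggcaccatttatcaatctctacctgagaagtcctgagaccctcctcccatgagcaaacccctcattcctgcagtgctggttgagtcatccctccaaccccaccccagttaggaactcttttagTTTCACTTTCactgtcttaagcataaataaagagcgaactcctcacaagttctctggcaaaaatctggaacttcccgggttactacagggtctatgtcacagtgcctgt
Oas1a (chr5:120907476-120907775, minus strand): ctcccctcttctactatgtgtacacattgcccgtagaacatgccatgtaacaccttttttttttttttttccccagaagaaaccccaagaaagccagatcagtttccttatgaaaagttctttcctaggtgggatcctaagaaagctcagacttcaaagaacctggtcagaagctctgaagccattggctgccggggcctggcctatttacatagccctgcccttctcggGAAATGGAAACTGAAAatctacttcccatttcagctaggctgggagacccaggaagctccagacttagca
Xaf1 (chr11:72301379-72301678, plus strand): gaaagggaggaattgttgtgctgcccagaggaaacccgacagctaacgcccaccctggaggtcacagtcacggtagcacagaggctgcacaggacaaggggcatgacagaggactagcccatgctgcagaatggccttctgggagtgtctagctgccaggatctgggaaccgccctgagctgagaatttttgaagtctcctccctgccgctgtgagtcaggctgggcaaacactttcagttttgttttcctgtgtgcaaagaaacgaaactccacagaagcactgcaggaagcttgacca
The matches in Isg15 began 78, 72 and 66 bases before the start. Those in Ifit3 began 156 and 122 bases before it, that in Gbp2 59 bases before it, and those in Oas1a 20 and 14 bases before it. Irf7, Oasl2, Irf1 and Irf9 had a window with no match to this pattern.

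**Figure D1:**
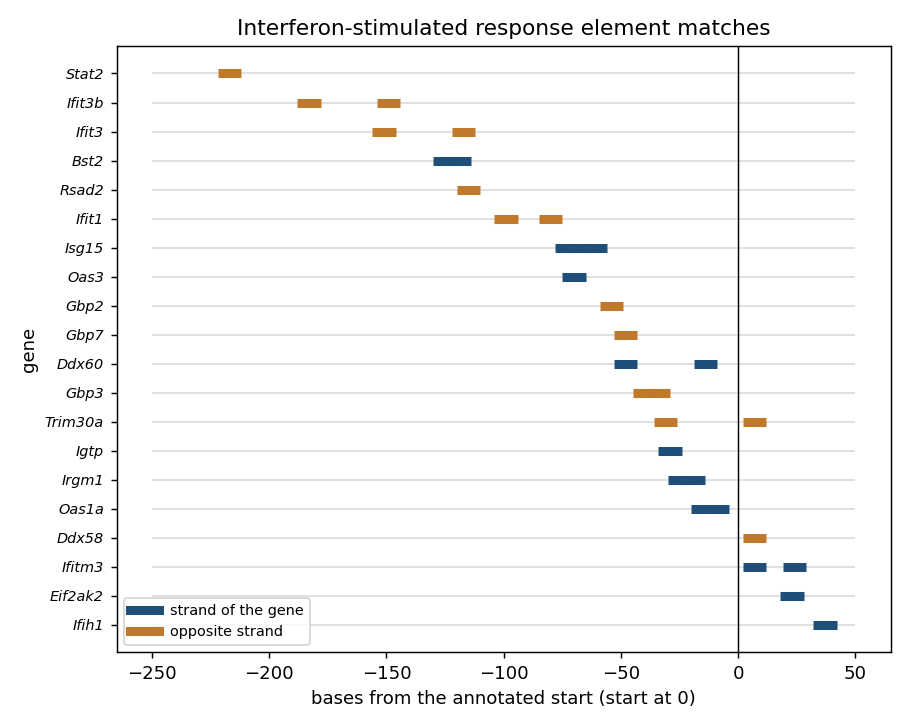
Position of each match to the interferon-stimulated response element pattern (bar of 10 bases) in the windows of the 20 genes that hold it, in bases from the annotated start, coloured by strand. Matches run from 222 bases before the start, in Stat2, to 32 bases after it, in Ifih1; Trim30a has a window for each of several annotated starts, drawn on 1 line.

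The targeted gene followed the labels: Fst had 204, 189 and 166 CPM in the Fst vector libraries, 0, 1 and 0 counts in the GFP vector libraries, 2, 4 and 2 counts in KO and 34, 33 and 51 counts in WT. Interferon response genes were low for the most part. Libraries held 8081824 to 11331337 counts, so that 3 counts, the floor used here, equal 0.265 to 0.371 CPM (counts scaled by the library total to 1000000). Summed over the 43 genes the level was 212 CPM in Fst vector M1, 237 CPM in Fst vector M2 and 223 CPM in Fst vector F. It was 245 CPM in GFP vector M1, 241 CPM in GFP vector M2 and 675 CPM in GFP vector F. The KO libraries stood at 160 to 173 CPM and the WT libraries at 172 to 184 CPM. The 5 genes with the highest mean CPM were Stat2 (36.3), Irf9 (25.3), Ifi27 (23.8), Lgals3bp (19.98) and Irf1 (16.5), and they made up 52.0 to 64.7% of the sum in 11 libraries and 33.6% in GFP vector F. Per 1000 bases of exon, Ifi27, named for its induction by interferon alpha, and Ifitm3, which blocks viral membrane fusion, had the highest mean levels, 16.2 and 13.4 CPM.

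The library GFP vector F stood apart from the other 11 across the set. It was the highest of the 12 libraries for 40 of the 43 genes; the exceptions were Irf1, Oas3 and Sp100. For the 39 genes with at least 10 counts in GFP vector M1 and M2 together, its CPM was a median of 3.35 times the mean of those libraries, with a range of 0.907 to 9.71. It was above 2 times in 34 of them, or 87.2%. Over all 16461 genes with as many counts the median was 0.985, and 4.54% were above 2 times. GFP vector F was the highest library for 37 of these 39 genes, against 16.7% of the 16461. Mx1, a GTPase that traps viral nucleocapsids, had 59 counts in GFP vector F and at most 6 in any other library. Zbp1, a sensor of Z-form nucleic acid, had 41 counts there and at most 4 elsewhere. Ifi44, an interferon-induced cytoplasmic protein, had 104 counts there and at most 11 elsewhere. Isg15 had 18.1 CPM in GFP vector F, and 1.22 to 3.34 CPM in the other 11 libraries.

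GFP vector F was also the only female library of its group, so sex and this library cannot be told apart within it. Libraries with F in their names in the other groups had member sums of 223 CPM (Fst vector F), 173 CPM (KO F1) and 184 CPM (WT F1); Fst vector F lay between its group mates, and KO F1 and WT F1 were the highest of their groups. Summed markers of reactive astrocytes (6 genes) were 700 to 1141 CPM in Fst vector libraries, 5844 CPM in GFP vector F, 658 and 1766 CPM in the other GFP vector libraries and 446 to 534 CPM in KO and WT libraries. Gfap, the astrocyte filament protein, made up most of this sum, with 4864 CPM in GFP vector F. Serpina3n, a protease inhibitor of reactive astrocytes, had 24.7, 24.3 and 33.9 CPM in the Fst vector libraries, 54.9, 128 and 575 CPM in the GFP vector libraries (M1, M2 and F) and 39.8 to 47.9 CPM in KO and WT libraries, so the Fst vector libraries were the lowest for it. Microglial markers (11 genes) summed to 535 CPM in GFP vector F, 327 to 437 CPM in the other vector libraries and 300 to 330 CPM in KO and WT libraries. T cell markers (12 genes) summed to 1.61 to 4.15 CPM and those of monocytes and neutrophils (6 genes) to 0.0974 to 1.36 CPM over all 12 libraries. Markers of B and plasma cells (8 genes) were 15.7 CPM in GFP vector F and highest in Fst vector M1 (201 CPM) and Fst vector F (88.8 CPM). Meningeal fibroblast markers (7 genes) summed to 95.3 CPM in GFP vector F, 48.4 to 78.3 CPM in the other vector libraries and 43.8 to 67.7 CPM in KO and WT libraries. Endothelial markers (8 genes) summed to 201 to 217 CPM in Fst vector libraries, 211 CPM in GFP vector F, 132 and 158 CPM in the other GFP vector libraries and 163 to 180 CPM in KO and WT libraries. Oligodendrocyte markers (5 genes) summed to 1048 to 1671 CPM in vector libraries and 862 to 947 CPM in KO and WT libraries, with no overlap. Granule cell markers (9 genes) summed to 1559 to 2495 CPM, so the defining cells of the labelled tissue were represented in every library. The sum does not show equal content, because its genes moved in different directions. Against KO and WT libraries, Dsp was lower in Fst vector libraries (34.2 to 75.0 against 220 to 266 CPM). It was also lower in GFP vector M2 (102 CPM) and F (98.3 CPM), but not in GFP vector M1 (288 CPM). Tdo2 was lower in GFP vector F (1.05 against 15.6 to 25.2 CPM), GFP vector M2 (8.47 CPM) and Fst vector libraries (2.88 to 9.92 CPM). In GFP vector M1 it was within the range of KO and WT libraries (18.3 CPM). C1ql2 was higher in vector libraries (572 to 813 against 453 to 568 CPM). The part of these cell types in the interferon values was not tested, and in bulk tissue a change in cell number and a change in RNA per cell cannot be told apart. The main results on the vector groups are given with and without GFP vector F.

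**Figure D2:**
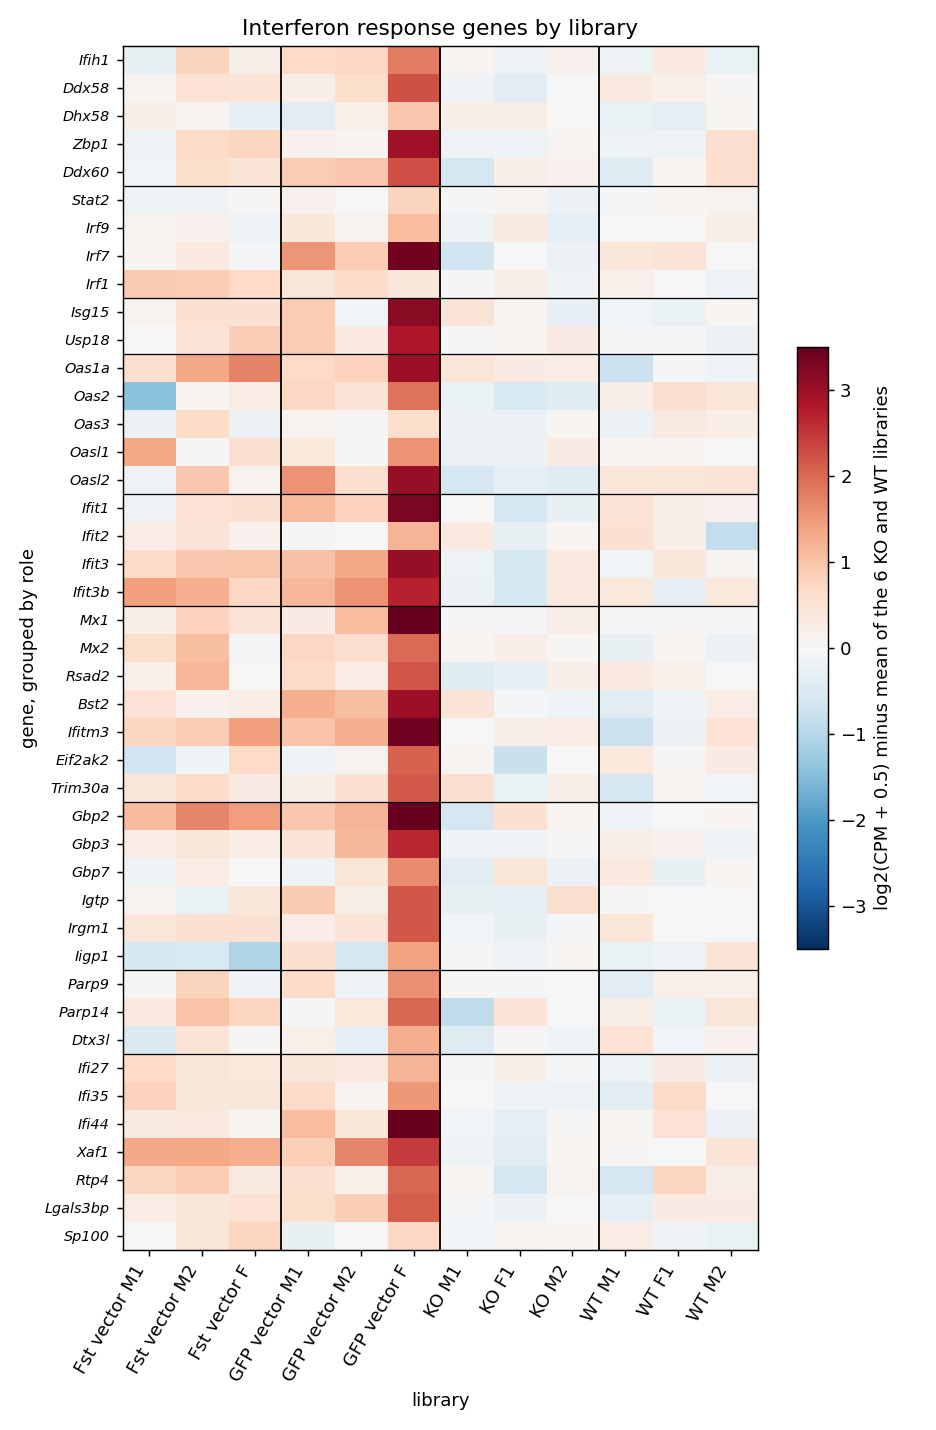
Each of the 43 genes (rows, grouped by role) in each library (columns), as log2(CPM + 0.5) minus its mean over the 6 KO and WT libraries. The column of GFP vector F is red for nearly every gene, from pale, as for Stat2, to dark, as for Ifi44. The other vector columns are red for fewer genes, among them Xaf1, Gbp2, Ifit3 and Irf1.

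Vector libraries had more of many interferon response transcripts than libraries without a vector. In 1 fit of all 12 libraries, 38 of the 43 genes passed the filter on low counts; Ifi44, Mx1, Oas3, Oasl1 and Zbp1 did not. Of the 38, 17 were higher in vector libraries at an adjusted p under 0.05 (edgeR quasi-likelihood, adjusted over 15632 genes) and none was lower, while 12.6% of all genes tested were higher. The median log2 difference was 0.93 over the 38 genes and 0.01 over all genes. The filter was passed by 8 of the 38 in the joint fit and not in KO and WT libraries alone, so they could enter through the vector libraries. Among the 30 others 13 were higher, against 12.5% of the genes that passed in KO and WT alone. Without GFP vector F, 15 of 38 were higher (background 12.4%) and the median was 0.55; 14 of the 15 were called with all libraries too. Among the same 30 genes, 13 were then higher (background 12.6%). The vector groups and the KO and WT groups were deposited as separate tables, so in all of these values vector and table cannot be told apart.

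Leaving out single libraries moved the count of 17 by more than 1.5 times in either direction. It was 28 without GFP vector M2. It was 7 without KO M1, KO M2 or WT M1, 8 without KO F1, 9 without WT M2 or Fst vector M1, 10 without Fst vector M2 or Fst vector F, and 11 without WT F1. The count over all genes moved too, from 1971 higher with all libraries to between 1365 and 2332 with 1 library left out. In all 12 such fits, and under each other setting tried, 6 genes stayed called: Xaf1, Irf1, Ifit3, Ifit3b, Gbp2 and Oas1a. Gbp2 and Oas1a are among the 8 genes that passed the filter in the joint fit only.

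Of the transcription factors, Irf1 and Irf7 were higher and Stat2 and Irf9, which act in 1 complex, were not called. Irf1 (ENSMUSG00000018899; chr11:53770014-53778374, plus strand), which responds chiefly to interferon gamma, had 24.2, 23.9 and 20.8 CPM in the Fst vector libraries, 16.95, 20.1 and 16.8 CPM in the GFP vector libraries, 11.9, 14.5 and 11.4 CPM in KO and 14.4, 12.5 and 11.1 CPM in WT. All 6 vector libraries were above all 6 others, and GFP vector F was the lowest of the vector libraries. The log2 difference was 0.65 ± 0.10 (SE, adjusted p = 0.000884), and 0.68 ± 0.11 without GFP vector F (adjusted p = 0.000708). Irf7, which amplifies type I interferon production, had 1.57, 2.03 and 1.44 CPM in the Fst vector libraries, 5.32, 3.12 and 20.2 CPM in the GFP vector libraries, 0.752, 1.499 and 1.22 CPM in KO and 2.10, 2.25 and 1.5003 CPM in WT. The Fst vector libraries overlapped with WT, and the 3 GFP vector libraries were the highest of the 12. Its difference was 1.39 ± 0.46 (adjusted p = 0.0456), and 0.79 ± 0.26 without GFP vector F (adjusted p = 0.0367), but it was not called in 9 of the 12 fits that leave out 1 library. Stat2 ran from 30.4 to 59.1 CPM in vector libraries and from 29.9 to 37.5 CPM in the others, a difference of 0.09 ± 0.12 (adjusted p = 0.589), or -0.05 ± 0.08 without GFP vector F (adjusted p = 0.725). Irf9 ran from 20.04 to 47.6 CPM and from 17.3 to 27.3 CPM, a difference of 0.29 ± 0.16 (adjusted p = 0.220), or 0.11 ± 0.12 without GFP vector F (adjusted p = 0.527).

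The IFIT family binds viral RNA and blocks its translation, and 3 of its 4 members were higher. Ifit3 (ENSMUSG00000074896; chr19:34583531-34588731, plus strand) had 6.19, 7.59 and 7.86 CPM in the Fst vector libraries, 8.17, 10.03 and 34.5 CPM in the GFP vector libraries, 3.22, 2.36 and 4.88 CPM in KO and 3.46, 5.04 and 4.06 CPM in WT. Vector and non-vector libraries did not overlap. The log2 difference was 1.53 ± 0.36 (adjusted p = 0.0125), and 1.05 ± 0.18 without GFP vector F (adjusted p = 0.00118). Ifit3b (ENSMUSG00000062488; chr19:34607970-34613401, plus strand) had 5.40, 4.66 and 3.10 CPM in the Fst vector libraries, 4.33, 5.94 and 13.5 CPM in the GFP vector libraries, 1.40, 0.964 and 2.23 CPM in KO and 2.31, 1.29 and 2.29 CPM in WT. Its difference was 1.73 ± 0.31 (adjusted p = 0.00208), and 1.41 ± 0.25 without GFP vector F (adjusted p = 0.00122). Of the 50-base words in Ifit3 transcripts 51.2% also occur in Ifit3b, so the 2 genes are not independent measurements. Ifit1, which binds the cap of viral RNA, had 0.884, 1.72 and 1.77 CPM in the Fst vector libraries, 2.85, 2.24 and 14.9 CPM in the GFP vector libraries, and 0.535 to 1.68 CPM in the 6 KO and WT libraries. The Fst vector libraries lay within or just above the range without a vector; the difference was 1.52 ± 0.51 (adjusted p = 0.0486), and 0.81 ± 0.28 without GFP vector F (adjusted p = 0.0478). Ifit2 differed by 0.34 ± 0.28 (adjusted p = 0.400), or 0.05 ± 0.23 without GFP vector F (adjusted p = 0.896).

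Oas1a, Oasl2 and Usp18 were higher in the OAS family and the ISG15 system, and Oas2 and Isg15 were not called. OAS enzymes make the oligoadenylates that activate RNase L. Oas1a (ENSMUSG00000052776; chr5:120896256-120907521, minus strand) had 0.786, 1.62 and 2.32 CPM in the Fst vector libraries, 0.866, 0.974 and 6.30 CPM in the GFP vector libraries, 0.644, 0.535 and 0.508 CPM in KO and 0, 0.322 and 0.265 CPM in WT. The groups did not overlap, although the KO and WT values rest on at most 6 counts a library. The log2 difference was 2.56 ± 0.63 (adjusted p = 0.0121), and 1.77 ± 0.46 without GFP vector F (adjusted p = 0.0120); 57.6% of its 50-base words occur in other Oas1 genes. Oasl2, an OAS-like protein, had 2.16, 5.27 and 2.77 CPM in the Fst vector libraries, 8.41, 3.90 and 24.4 CPM in the GFP vector libraries, 1.504, 1.93 and 1.73 CPM in KO and 3.46, 3.54 and 3.71 CPM in WT. Its difference was 1.35 ± 0.42 (adjusted p = 0.0399), and 0.84 ± 0.26 without GFP vector F (adjusted p = 0.0289), with Fst vector M1 and F below every WT library. Usp18, which removes Isg15 from proteins, ran from 0.589 to 7.16 CPM in vector libraries and from 0.441 to 0.813 CPM in the others, a difference of 1.59 ± 0.53 (adjusted p = 0.0421), and 0.86 ± 0.35 without GFP vector F (adjusted p = 0.0838). Isg15 differed by 1.34 ± 0.56 (adjusted p = 0.104), and by 0.48 ± 0.27 without GFP vector F (adjusted p = 0.210).

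Among the guanylate-binding proteins and immunity-related GTPases, which attack pathogen-containing vacuoles, Gbp2 and Gbp3 were higher of 6 tested. Gbp2 (ENSMUSG00000028270; chr3:142620602-142638008, plus strand) had 2.16, 3.54 and 2.88 CPM in the Fst vector libraries, 1.86, 2.34 and 15.5 CPM in the GFP vector libraries, 0.322, 1.28 and 0.813 CPM in KO and 0.630, 0.751 and 0.794 CPM in WT. Every vector library was above every other one. The log2 difference was 2.46 ± 0.59 (adjusted p = 0.0124), and 1.63 ± 0.31 without GFP vector F (adjusted p = 0.00198). Gbp3 ran from 3.73 to 21.8 CPM in vector libraries and from 2.68 to 3.67 CPM in the others, again without overlap, and differed by 1.08 ± 0.33 (adjusted p = 0.0334), or 0.62 ± 0.18 without GFP vector F (adjusted p = 0.0220). Irgm1, a regulator of autophagy, was called only without GFP vector F, at 0.43 ± 0.15 (adjusted p = 0.0441), against 0.90 ± 0.31 with it (adjusted p = 0.0529). Iigp1 was the single gene of the 38 with a negative difference when all libraries were used, -0.10 ± 0.31 (adjusted p = 0.842), or -0.44 ± 0.26 without GFP vector F (adjusted p = 0.231). It had 2.06, 2.13 and 1.33 CPM in the Fst vector libraries, 5.07, 2.05 and 9.54 CPM in the GFP vector libraries, 3.22, 2.998 and 3.56 CPM in KO and 2.73, 2.90 and 4.77 CPM in WT.

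Among the other antiviral effectors Bst2, Ifitm3 and Mx2 were higher, and Rsad2, Eif2ak2 and Trim30a were not called. Ifitm3 had 6.48, 7.29 and 10.8 CPM in the Fst vector libraries, 7.92, 9.45 and 44.1 CPM in the GFP vector libraries, 3.65, 4.39 and 4.47 CPM in KO and 1.99, 3.11 and 5.38 CPM in WT. The groups did not overlap, and the log2 difference was 1.72 ± 0.47 (adjusted p = 0.0273), or 1.10 ± 0.21 without GFP vector F (adjusted p = 0.00264). Bst2, which tethers budding virions to the cell, had 3.63, 2.73 and 2.99 CPM in the Fst vector libraries, 6.56, 5.65 and 22.7 CPM in the GFP vector libraries, 3.54, 2.36 and 2.13 CPM in KO and 1.78, 2.15 and 3.0005 CPM in WT. The Fst vector libraries lay within or near the range without a vector, and the GFP vector libraries above it; the difference was 1.24 ± 0.36 (adjusted p = 0.0251), or 0.77 ± 0.21 without GFP vector F (adjusted p = 0.0140). Mx2, an Mx family gene that the annotation lists as a polymorphic pseudogene, ran from 0.443 to 3.34 CPM in vector libraries and from 0.315 to 0.642 CPM in the others, and differed by 1.46 ± 0.42 (adjusted p = 0.0226), or 1.05 ± 0.38 without GFP vector F (adjusted p = 0.0563). Eif2ak2, the double-stranded RNA-activated kinase PKR, ran from 2.36 to 18.7 CPM and from 2.14 to 5.35 CPM; its difference was 0.54 ± 0.43 with GFP vector F (adjusted p = 0.386) and -0.04 ± 0.26 without it (adjusted p = 0.934). Trim30a, an E3 ligase family member, ran from 1.61 to 7.73 CPM and from 0.735 to 2.26 CPM, a difference of 1.001 ± 0.38 (adjusted p = 0.0674), or 0.50 ± 0.27 without GFP vector F (adjusted p = 0.198).

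Xaf1, Ifi27 and Lgals3bp were higher among the remaining induced genes. Xaf1 (ENSMUSG00000040483; chr11:72301629-72313733, plus strand), which binds the apoptosis inhibitor XIAP, had 5.11, 5.16 and 4.87 CPM in the Fst vector libraries, 3.46, 6.82 and 11.7 CPM in the GFP vector libraries, 1.504, 1.18 and 1.83 CPM in KO and 1.78, 1.72 and 2.56 CPM in WT. No vector library fell within the range of the others. The log2 difference was 1.77 ± 0.26 (adjusted p = 0.000637), and 1.51 ± 0.22 without GFP vector F (adjusted p = 0.000399). Ifi27 had 30.4, 25.5 and 24.2 CPM in the Fst vector libraries, 24.6, 23.9 and 43.1 CPM in the GFP vector libraries, 17.8, 22.1 and 17.98 CPM in KO and 16.6, 23.0 and 16.1 CPM in WT, a difference of 0.57 ± 0.16 (adjusted p = 0.0196), or 0.40 ± 0.12 without GFP vector F (adjusted p = 0.0220). Lgals3bp, a secreted galectin-binding glycoprotein, ran from 16.0 to 60.1 CPM in vector libraries and from 10.6 to 16.5 CPM in the others, with an overlap through Fst vector M1, and differed by 0.85 ± 0.25 (adjusted p = 0.0304), or 0.53 ± 0.12 without GFP vector F (adjusted p = 0.00642). Sp100, a nuclear body protein, ran from 1.98 to 4.43 CPM and from 2.03 to 3.04 CPM and differed by 0.34 ± 0.23 (adjusted p = 0.302), or 0.13 ± 0.22 without GFP vector F (adjusted p = 0.696).

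The cytosolic RNA sensors and the PARP group gave 1 call between them. Ifih1, the long double-stranded RNA sensor MDA5, ran from 1.47 to 7.73 CPM in vector libraries and from 1.5003 to 2.47 CPM in the others, and differed by 0.83 ± 0.28 (adjusted p = 0.0470), or 0.56 ± 0.25 without GFP vector F (adjusted p = 0.111). Ddx58, the sensor RIG-I, differed by 0.90 ± 0.32 (adjusted p = 0.0582), or 0.43 ± 0.18 without GFP vector F (adjusted p = 0.0945). Dhx58, their regulator LGP2, differed by 0.21 ± 0.29 (adjusted p = 0.627), or -0.07 ± 0.28 without it (adjusted p = 0.880). Parp9 and its partner ligase Dtx3l, which overlap on opposite strands by 458 bases, differed by 0.63 ± 0.31 and 0.30 ± 0.29 (adjusted p = 0.147 and 0.481), and the ADP-ribosyltransferase Parp14 by 0.95 ± 0.41 (adjusted p = 0.106). When GFP vector F was left out, Parp9 differed by 0.30 ± 0.26, Dtx3l by -0.04 ± 0.24 and Parp14 by 0.42 ± 0.29 (adjusted p = 0.430, 0.918 and 0.307).

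All 6 vector libraries were above all 6 others for 9 of the 38 genes, namely Gbp2, Gbp3, Ifi27, Ifit3, Ifit3b, Ifitm3, Irf1, Oas1a and Xaf1, where 7.01% of all genes tested did the same. Among the 30 genes that passed the filter in KO and WT alone it was 7, against 7.06% of such genes.

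**Figure D3:**
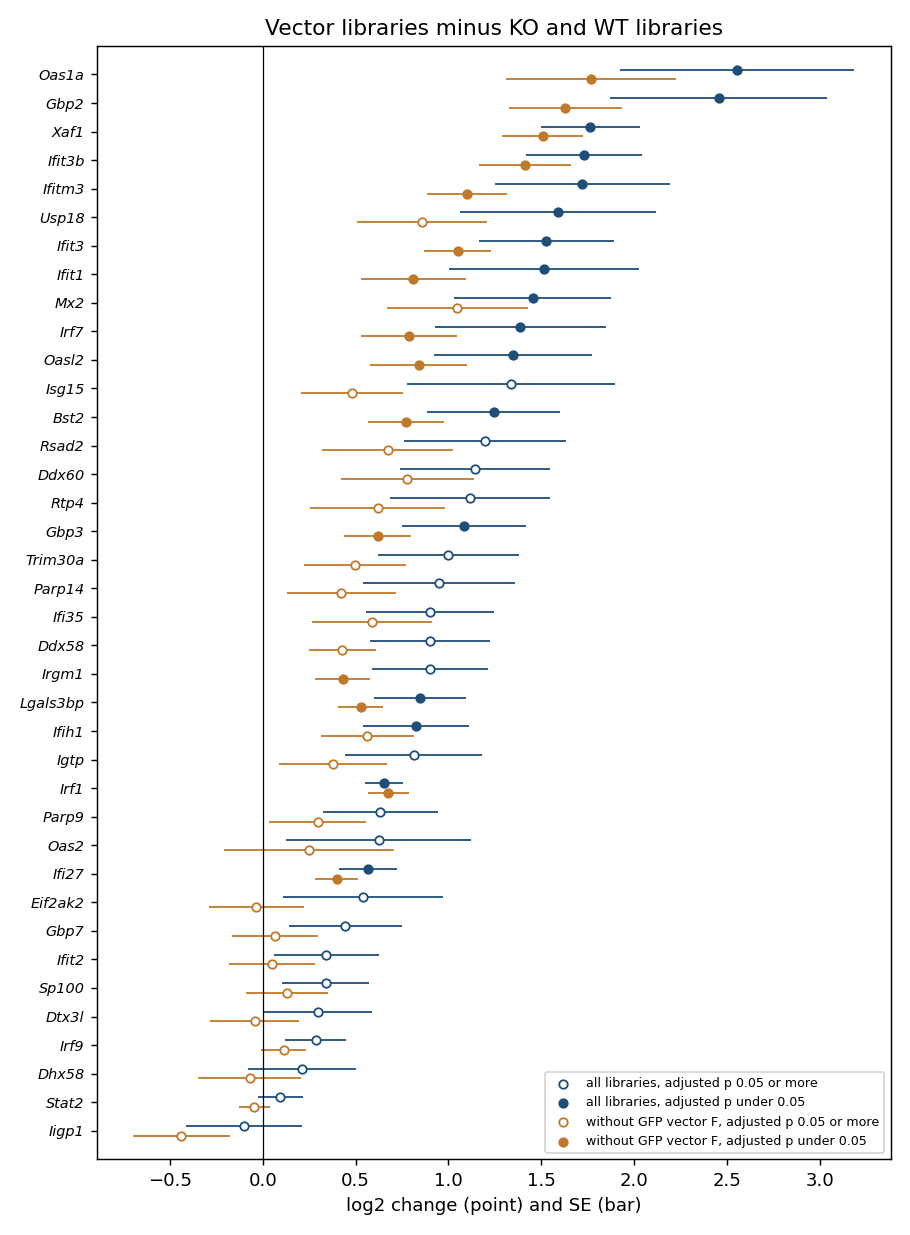
Log2 difference, vector minus KO and WT libraries, with its SE for the 38 genes tested, from all 12 libraries (blue) and without GFP vector F (orange); filled points have an adjusted p under 0.05. Without that library most points move toward 0, as Isg15 does (1.34 with it and 0.48 without), while Irf1 does not (0.65 and 0.68).

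**Figure D4:**
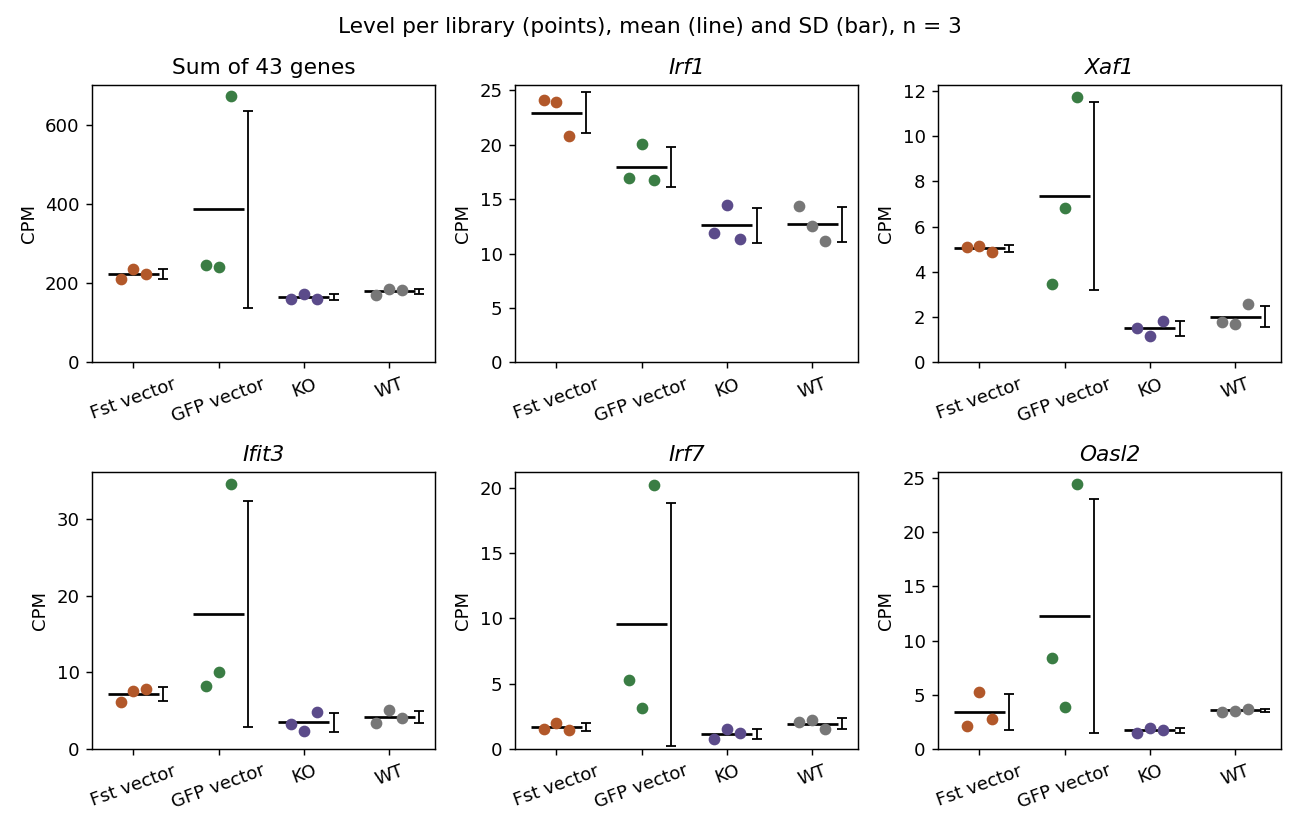
CPM per library (points) with the mean (line) and SD (bar, n = 3) for the sum of the 43 genes and for 5 of them, on linear axes from 0. GFP vector F is the highest point in each panel except that of Irf1, where the Fst vector libraries, at 20.8 to 24.2 CPM, are the highest.

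The vector difference was also taken separately for each vector group, on disjoint sets of libraries. Both contrasts again run across the tables. In GFP vector against KO libraries, 2 groups of the same genotype by their labels, all 38 genes tested had a positive log2 difference and 9 were called higher (Bst2, Gbp3, Ifit1, Ifit3, Ifit3b, Irf7, Lgals3bp, Oasl2 and Xaf1), while 2.12% of all genes were. The median was 1.57 over the 38 genes. The 9 genes were all among the 30 that passed the filter in KO and WT alone, where the background was 2.04% and the median 1.40. With the replicate name as a block only Xaf1 was called. Without GFP vector F, 6 were called (Ifit3, Ifit3b, Irf7, Lgals3bp, Oasl2 and Xaf1; background 0.528%) and the median was 0.69; over the 30 genes 6 were called (background 0.543%) and the median was 0.53. Xaf1 differed by 2.27 ± 0.38 (adjusted p = 0.0139), and by 1.76 ± 0.33 without GFP vector F (adjusted p = 0.0259). Irf7 differed by 3.02 ± 0.63 (adjusted p = 0.0330), and by 1.82 ± 0.37 without it (adjusted p = 0.0374). Oasl2 differed by 2.81 ± 0.61 (adjusted p = 0.0379), and by 1.80 ± 0.39 without it (adjusted p = 0.0454). These calls depended on single libraries: 0 genes were called without any one of KO M1, F1 or M2, 2 without any one WT library, 5 without Fst vector F and 24 without GFP vector M1. Over all genes, 331 were called higher with all libraries, 4 to 10 without a KO library, 92 to 108 without a WT library, 339 without Fst vector F and 1005 without GFP vector M1.

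In Fst vector against WT libraries 2 of 38 genes were higher, Irf1 and Xaf1, and 6.47% of all genes were, so the share of the set was near that of all genes. Both were among the 30 genes that passed in KO and WT alone (background 6.53%). Irf1 differed by 0.81 ± 0.15 (adjusted p = 0.00330) and Xaf1 by 1.26 ± 0.37 (adjusted p = 0.0361). The median was 0.34. When GFP vector F was left out of the shared estimate of spread, 8 genes were called (background 9.17%), with Gbp2 at 1.91 ± 0.40, Oas1a at 2.85 ± 0.63, Ifitm3 at 1.16 ± 0.29, Ifit3b at 1.11 ± 0.33, Ifi27 at 0.49 ± 0.15 and Ifit3 at 0.74 ± 0.24 added (adjusted p = 0.00521 to 0.0470). Of these 8, 6 were among the 30 genes (background 9.36%). Only 1 gene was called without any one of WT M1, WT F1, WT M2, Fst vector M1, Fst vector M2 or Fst vector F. The count over all genes was 1011 higher with all libraries and 324 to 1459 with 1 library left out. Irf7 (-0.25 ± 0.35), Oasl2 (-0.12 ± 0.34) and Ifit1 (0.01 ± 0.37), 3 of the genes with the largest differences between GFP vector and KO libraries, were close to 0 here, by the fit without GFP vector F. Gbp2 was not, at 1.91 ± 0.40 by the same fit. By DESeq2 with all libraries, GFP vector F included, Gbp2 differed by 3.01 in GFP vector against KO and by 1.93 in Fst vector against WT. With edgeR it was not called in GFP vector against KO, with or without GFP vector F. For Irf7, Oasl2 and Ifit1 every KO library was also below every WT library. The part of these baselines in the contrast was not tested.

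The difference between the 2 vector effects was tested directly, as Fst vector minus WT less GFP vector minus KO. No gene of the set was called, and 0.0768% of all genes were lower. At an unadjusted p under 0.05, 11 genes were lower and 0 higher, against 5.07% and 3.55% of all genes. These 11 were not split by whether a gene also passed the filter in KO and WT libraries alone. The median was -1.13, and -0.31 without GFP vector F. Irf7 gave -3.27 ± 0.92 (adjusted p = 0.288), and -2.07 ± 0.51 without GFP vector F (adjusted p = 0.145). Oasl2 gave -2.93 ± 0.85 (adjusted p = 0.329), and -1.91 ± 0.52 without it (adjusted p = 0.194). DESeq2 called these 2 genes lower with all libraries, at adjusted p = 0.00967 and 0.0105, and 0 genes without GFP vector F; with all libraries it called 0.704% of all genes lower. Leaving out GFP vector M2 gave 2 calls with edgeR.

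Within the vector table, most interferon response genes had lower levels in Fst vector than in GFP vector libraries, and none passed the test. Of the 38 genes that passed the filter, 36 had a negative log2 difference, with a median of -0.97, against a median of 0.01 over all 15034 genes tested. Among the 30 genes that passed the filter in KO and WT alone, 28 differences were negative, with a median of -0.97. Of the 38, edgeR called 0 in either direction (background 0.0266% higher and 0.0532% lower). At an unadjusted p under 0.05, 14 of the 38 were lower, against 5.16% of all genes. Without GFP vector F the median of the 38 was -0.11 and 15 differences were positive. In that fit 0 genes were called and 3 were lower at an unadjusted p under 0.05 (background 3.8%). The counts at an unadjusted p were not split by the filter in KO and WT alone. The smallest p values belonged to Bst2, with -1.94 ± 0.56 (adjusted p = 0.346) and -0.997 ± 0.28 without GFP vector F (adjusted p = 0.382), to Irf7, with -2.54 ± 0.73 (adjusted p = 0.349) and -1.35 ± 0.37 without it (adjusted p = 0.369), and to Iigp1, with -1.62 ± 0.53 (adjusted p = 0.392) and -0.96 ± 0.46 without it (adjusted p = 0.743). DESeq2 called Bst2, Ifit1, Irf7 and Oasl2 lower with all libraries, at adjusted p = 0.00288 to 0.0451, gave no adjusted p for Dhx58, Ifi35, Mx2 and Oas2, and called 0 genes of the set without GFP vector F. Over all 15034 genes DESeq2 called 80 higher and 170 lower (1.13% lower) with all libraries. With the replicate as a block 0 genes of the set were called, while over all genes 50 were called higher and 100 lower.

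Every Fst vector library was below every GFP vector library for 8 genes: Bst2, Ddx60, Gbp3, Ifit1, Ifit3, Irf7, Lgals3bp and Oas2. The share of all genes was 6.01%. Ddx60 and Oas2 are among the genes that did not pass the filter in KO and WT alone, which leaves 6 of the 30. Lgals3bp had 16.0, 17.6 and 19.2 CPM in the Fst vector libraries, against 20.8, 24.6 and 60.1 CPM in the GFP vector libraries, a difference of -1.04 ± 0.40 (adjusted p = 0.482), or -0.41 ± 0.17 without GFP vector F (adjusted p = 0.660). With all libraries Irf1 was the single gene with the opposite order (background 10.5%), at 0.32 ± 0.15 (adjusted p = 0.561), and Sp100 the other gene with a positive difference, at 0.18 ± 0.38 (adjusted p = 0.920). Leaving out GFP vector F, after which groups can only overlap less, gave 3 genes with the opposite order, Ifit2, Irf1 and Sp100 (background 15.1%); Irf1 differed by 0.27 ± 0.17 and Sp100 by 0.59 ± 0.37 (adjusted p = 0.856 for both).

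No interferon response gene was called between KO and WT libraries. The filter was passed by 30 genes. With edgeR and with DESeq2 0 were called in either direction, where edgeR called 0.0067% of 14919 genes higher and 0.0201% lower. At an unadjusted p under 0.05 only Oasl2 was lower and 0 genes were higher, against 3.01% and 2.95% of all genes. The median log2 difference was -0.10, and -0.000833 over all genes, with 11 positive and 19 negative differences. The 13 genes not tested were Ddx60, Gbp2, Ifi35, Ifi44, Mx1, Mx2, Oas1a, Oas2, Oas3, Oasl1, Rtp4, Usp18 and Zbp1.

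Oasl2 had 1.504, 1.93 and 1.73 CPM in KO, against 3.46, 3.54 and 3.71 CPM in WT. Every KO library was below every WT library, with a difference of -1.03 ± 0.28 (adjusted p = 0.314); it was not called under any setting tried. Irf7 had 0.752, 1.499 and 1.22 CPM in KO, against 2.10, 2.25 and 1.5003 CPM in WT, with KO F1 and WT M2 nearly equal, and differed by -0.72 ± 0.37 (adjusted p = 0.866). Eif2ak2 had 4.40, 2.14 and 4.06 CPM in KO, against 5.35, 4.18 and 5.12 CPM in WT, with an overlap, and differed by -0.45 ± 0.25 (adjusted p = 0.894). On the positive side the smallest p values were those of Trim30a (0.52 ± 0.40, adjusted p = 0.934), Dhx58 (0.40 ± 0.38, adjusted p = 0.950) and Ifitm3 (0.25 ± 0.28, adjusted p = 0.956). All KO libraries were below all WT libraries for 5 genes, Ddx58, Ifit1, Irf7, Irgm1 and Oasl2, and above them for 0, against 7.04% and 3.98% of all genes tested.

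**Figure D5:**
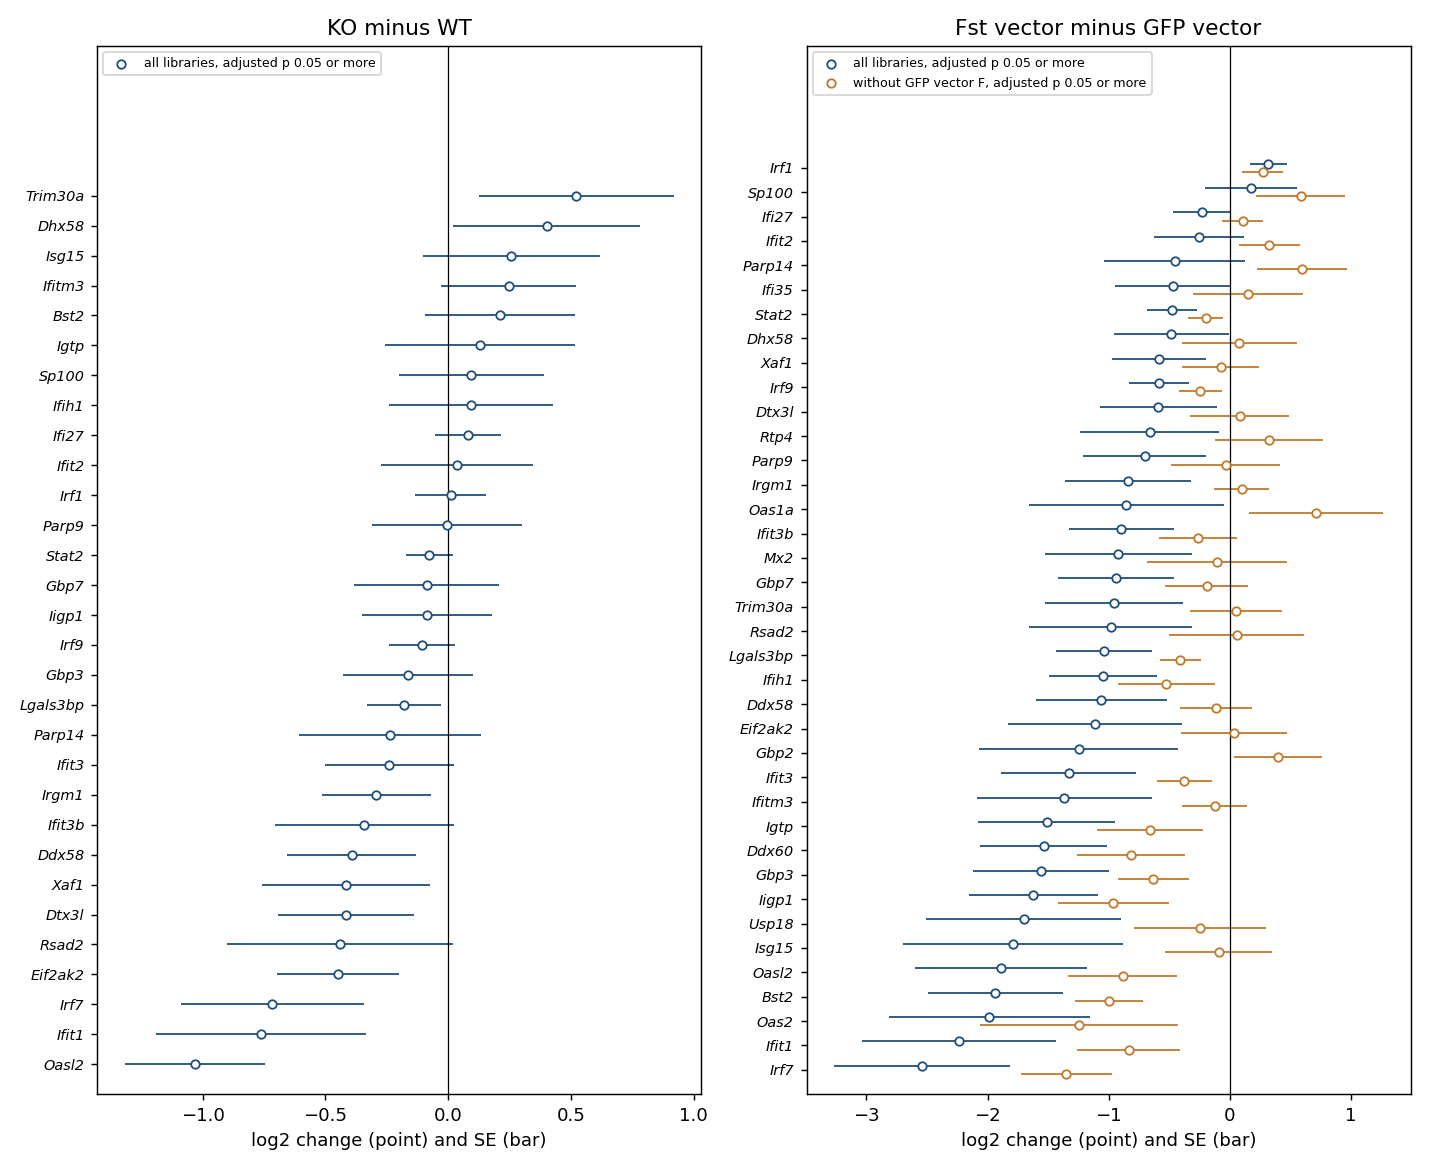
Log2 difference with its SE, KO minus WT for the 30 genes tested (left) and Fst vector minus GFP vector for the 38 genes tested (right; blue, all libraries; orange, without GFP vector F). Open points throughout mark adjusted p of 0.05 or more; on the right, the median is -0.97 for the blue points and -0.11 for the orange ones.

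The rest of the pathway was described with 106 further genes, from ligands to additional targets. Transcripts of the 10 listed interferons were at 0 counts in all 12 libraries, apart from 1 count of Ifnz in Fst vector M1 and 1 in WT F1. Receptors were present, with Ifnar1 at 37.8 to 52.2 CPM in vector libraries and 43.4 to 48.6 CPM in the others, a difference of 0.01 that was not called (adjusted p = 0.958). The second chain Ifnar2 was higher in vector libraries, at 17.05 to 23.0 CPM against 10.9 to 16.4 CPM, by 0.52 ± 0.12 (adjusted p = 0.00767), and so was Ifngr1, by 0.44 ± 0.15 (adjusted p = 0.0406). The values without GFP vector F were 0.47 ± 0.12 for Ifnar2 (adjusted p = 0.0125) and 0.36 ± 0.14 for Ifngr1 (adjusted p = 0.0810).

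Of 69 pathway genes tested between vector and non-vector libraries 18 were higher and 0 lower, where 12.6% of all genes were higher. In KO and WT alone 60 pathway genes were tested, so some of the 69 could enter through the vector libraries. The counts given here were not split by this. Besides Ifnar2 and Ifngr1, the 18 genes held Irf3, Irf8, Ticam1 and Unc93b1, listed under upstream sensing and adaptors, and the inhibitor Socs3. The other 11 were further induced genes, B2m, Psmb8, Psmb9, Tap1, Nlrc5, Gbp5, Herc6, Ifitm1, Ifitm2, Tgtp2 and Trim12c. Without GFP vector F, 14 were higher (background 12.4%) and the NF-kappaB inhibitor Tnfaip3 was lower, by -0.72 ± 0.19 (adjusted p = 0.0130). Socs3, which blocks cytokine receptor signalling, had 3.93, 5.67 and 8.52 CPM in the Fst vector libraries, 1.86, 2.63 and 12.02 CPM in the GFP vector libraries and 0.840 to 1.68 CPM in KO and WT libraries, a difference of 2.29 ± 0.47 (adjusted p = 0.00610), or 1.64 ± 0.29 without GFP vector F (adjusted p = 0.00122). Psmb8, an immunoproteasome subunit, had 1.88 to 5.63 CPM in vector libraries and 0.857 to 1.40 CPM in the others, a difference of 1.33 ± 0.25 (adjusted p = 0.00251), or 1.12 ± 0.23 without GFP vector F (adjusted p = 0.00371). Irf8, a factor of microglia and other myeloid cells, had 5.54 to 10.3 CPM and 3.67 to 4.497 CPM, a difference of 0.95 ± 0.16 (adjusted p = 0.00130), or 0.87 ± 0.16 without GFP vector F (adjusted p = 0.00190). GFP vector F was the highest library for 62 of the 106 genes. Among the 76 with at least 10 counts in GFP vector M1 and M2 together it was the highest for 49, against 16.7% of the 16461 genes with as many counts. Neither KO against WT nor Fst vector against GFP vector had a called pathway gene. At an unadjusted p under 0.05 KO had 1 higher and 4 lower of 60, against 2.95% and 3.01% of all genes. Fst vector had 1 higher and 4 lower, against 4.34% and 5.16% of all genes in that comparison. The smallest p values were those of Trim34a (-1.23 ± 0.48, adjusted p = 0.751) and Trim56 (-0.38 ± 0.16, adjusted p = 0.786) in KO, and of Uba7 (-1.61 ± 0.35) and Mndal (1.47 ± 0.32), both with adjusted p = 0.177, in Fst vector libraries.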

How the data were processed

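Total RNA of the dentate gyrus was sequenced in 12 libraries. Raw counts for each Ensembl gene were deposited by the authors in 2 tables, 1 for the vector groups and 1 for KO and WT, per the file headers; 12 and 6 rows that name no gene held 0 counts and were left out. Reads were placed on GRCm38, per the submitters' processing notes; the sources used here do not give aligner, counter or handling of strand, so reads cannot be assigned between overlapping genes. Symbols and gene bounds came from GENCODE M21. CPM is the deposited count per 1000000 counts of the library. Replicates of a group differed by a chi-square of 2.39 to 31.5 per degree of freedom, so no library was counted as a repeat of another.

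Tests used edgeR 4.0.16 (R 4.3.3; quasi-likelihood, robust, TMM scaling, filterByExpr, Benjamini-Hochberg at 0.05 over all genes tested), on 6 libraries within a table and on all 12 across tables. The SE was taken as the log2 change over the root of F. The fits were tested on simulated data. Alternatives were DESeq2 1.42.0, other scalings, no filter, a replicate block, a sex term, a spread shared over 12 libraries, and leaving out each library. The sex term followed the letters of the titles, which the descriptions contradict for F1 and M2 of both KO and WT. Deviations of same-named Fst vector and GFP vector libraries correlated at 0.325 (M1), 0.138 (M2) and 0.390 (F), and GFP vector M1 with Fst vector M2 at 0.119. No label used here pairs these libraries, and with 3 libraries a group such values cannot establish a pairing. The main fits held no pairing term, and the replicate block was an alternative only. For same-named KO and WT libraries the values were 0.0607, 0.130 and -0.0805.

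The 43 genes and the lists were chosen with earlier results of these data known. Named genes were those called in any comparison, the 3 smallest p in each direction of the first 3 comparisons, the 5 most abundant, and Oasl2. Reads of Ifit3, Ifit3b and Oas1a may be shared with near copies. Depth bears on every value as counting error: a gene at 3 counts stands at 0.265 to 0.371 CPM.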

Additional observations from a re-analysis of the deposited data

Results flagged for a closer look

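Among the 6 vector libraries, GFP vector F lay so far from the other 5 that the gap exceeded Dixon's 95% critical value for the sum of the 43 genes and for 20 of the 24 named genes. Chance marks about 1 group in 20. These marks are not separate observations, because the genes share the same libraries and most were named through calls that GFP vector F feeds. Its sum was 675 CPM. Among regulators the values in GFP vector F were 20.2 CPM for Irf7, 47.6 CPM for Irf9 and 59.1 CPM for Stat2, and among sensors 7.73 CPM for Ifih1 and 2.96 CPM for Dhx58. In the OAS and IFIT families and the ISG15 system they were 6.30 CPM for Oas1a, 24.4 CPM for Oasl2, 14.9 CPM for Ifit1, 34.5 CPM for Ifit3, 13.5 CPM for Ifit3b and 7.16 CPM for Usp18. Among effectors and GTPases they were 22.7 CPM for Bst2, 18.7 CPM for Eif2ak2, 44.1 CPM for Ifitm3, 3.34 CPM for Mx2, 7.73 CPM for Trim30a, 15.5 CPM for Gbp2 and 21.8 CPM for Gbp3. For Ifi27 and Lgals3bp they were 43.1 and 60.1 CPM. Summed reactive astrocyte markers were also highest in this library, at 5844 CPM, and their part in these values was not tested.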

How the results depend on the processing

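No result changed direction after being called. For KO against WT, 0 genes of the set were called in every setting; the median log2 change was -0.16 with no filter on low counts and -0.23 to -0.0859 with 1 library left out. For Fst vector against GFP vector, calls lower were 4 with DESeq2, 1 with the spread shared over 12 libraries and 0 with the replicate block; the median was -1.26 to -0.11 with 1 library left out and -0.12 with DESeq2 without GFP vector F, a fit added after seeing the data. For vector against non-vector, calls were 7 with the replicate block and 7 to 28 with 1 library left out, with medians of 0.55 to 1.11. For GFP vector against KO, calls were 1 with the replicate block (median 1.07), 19 with DESeq2 and 0 to 24 with 1 library left out (median 0.69 to 1.91). For Fst vector against WT, the replicate block gave 1 higher (Irf1) and 1 lower (Eif2ak2), and leaving out 1 library 1 to 8 higher. For the difference of the vector effects, calls lower were 1 with no filter, 2 with DESeq2 and 0 to 2 with 1 library left out, with medians of -1.46 to -0.31 and of -0.31 in the added DESeq2 fit without GFP vector F. Leaving out 1 library leaves fewer residual degrees of freedom, and calls rose in some of these fits and fell in others. The causes of these shifts were not tested. Over all genes, KO against WT had 23 higher and 23 lower with no filter, 11 and 8 with the replicate block and 16 and 14 with a term for sex by title, against 1 and 3. Fst vector against GFP vector had 94 and 136, 50 and 100, and 55 and 77 under the same settings, 80 and 170 with DESeq2 and 136 and 276 with the shared spread, against 4 and 8. GFP vector against KO had 645 and 545 with no filter, 128 and 86 with the replicate block and 714 and 537 with DESeq2, against 331 and 228. The difference of the vector effects had 50 and 77, 57 and 99, 10 and 32 with a sex term and 39 and 110 with DESeq2, against 5 and 12. Scaling by library totals moved the median of all genes by at most 0.04 on the log2 scale; calls between vector and non-vector libraries were then 2399 higher and 1516 lower, against 1971 and 1866, and 19 of the set were higher. Depth limits the least abundant genes, such as Mx1 and Zbp1, which passed the filter in none of the fits above of all libraries.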
